A study of Sus scrofa with 54 samples.

Results

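The genes described are the 67 pig genes whose read counts were far higher in skeletal muscle than in heart biopsies and blood, of 25114 genes counted. Values are in CPM, the count divided by the sum of the sample's counts and multiplied by 1000000. The genes were chosen by CPM, and a gene was taken where its median over the 6 skeletal muscle samples was at least 100 CPM and at least 10 times the sum of 1 CPM and the higher of the medians of 6 conventional heart biopsies and 6 blood samples taken at baseline. The limit of 300 genes was not reached. A symbol was matched for 51 of the 67 genes and the other 16 are known by identifier only.

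The samples came from naive female farm swine of Yorkshire-Swedish breed, sampled under anaesthesia, and amiodarone, which acts against arrhythmia, is named among the routine drugs of the procedures. Endomyocardial biopsies (EMB) of the left ventricle were taken with a conventional forceps bioptome or with a miniaturized device for sub-milligram pieces (micro-EMB), first at baseline and again on day 7, called follow-up. The 54 samples were 6 skeletal muscle samples, 6 conventional EMB at baseline and 4 at follow-up, 20 micro-EMB at baseline and 12 at follow-up, and 6 blood samples, from 5 pigs in all. Skeletal muscle, which was taken from the groin at baseline, blood and conventional EMB came from pigs 4491 and 4494 only, so that samples of one group share animals and p-values below measure the spread between biopsies more than between animals.

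Striated muscle contracts when myosin thick filaments slide along actin thin filaments inside sarcomeres bounded by Z-discs. Skeletal muscle and heart build this machine largely from different members of the same gene families, such as the cardiac and skeletal troponins, myosin light chains and calcium pumps. Skeletal fibres are also fast or slow, and fast fibres rely on glycogen and glycolysis for much of their energy.

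Library depth ran from 64216 to 4649613 counts. Of the micro-EMB baseline libraries, 3 (samples 9, 10 and 21) had fewer than 5000 genes at 1 CPM or more and were left out of the tests below, while 4 heart libraries (samples 19, 37, 55 and 56) had 15000 or more. The paper excluded 3 micro-EMB samples for poor mapping and few expressed genes. Those that passed its quality control had at least 6111 genes at 1 CPM or more, and samples 9, 10 and 21 lay below that. A share of counts on 7 genes of blood above 10% of the blood median marked 6 samples (3, 4, 19, 38, 55 and 57). In muscle sample 57 the share was 0.00644% against a limit of 0.00634%. Sample 57, from pig 4491 and with 325907 counts the shallowest of the muscle samples, had the lowest value of the 6 for 53 of the 67 genes. All 10 cardiomyocyte markers with a row in the table had a median above 0 in conventional EMB at baseline, where their summed CPM had a median of 94650, and 5 heart libraries (4, 21, 36, 38 and 55) lay under 1500 CPM. In skeletal muscle the same markers summed to a median of 6011 CPM (2142 to 11467.5 CPM), and 4 of the 10 had a median of 0. There the cardiac troponin T gene TNNT2 had a median of 8.20 CPM and the cardiac myosin-binding protein gene MYBPC3 a median of 0.

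In skeletal muscle the 67 genes held 26.4% of all counts in the median sample, from 16.3% in sample 57 to 31.9% in sample 31, and each of the 67 was read in all 6 samples. These values chose the genes and are given as a description. MYH8, a myosin heavy chain of developing muscle, took 34.6% of the counts on the 67 genes in the median muscle sample, and the 5 genes with the highest mean took 63.2% together. CPM is not per gene length, so values below are set side by side only within a gene. The highest ratios of the choice belonged, among genes with a symbol, to MYH8 (15952.5), the fast calcium pump ATP2A1 (9418), fast troponin C TNNC2 (8212), the fast myosin light chain MYL11 (6866) and the slow-type myosin-binding protein C gene MYBPC1 (3594). Just inside the ratio threshold stood MYH3 and PHKG1, both at 10.6, and just outside it TNNI1 at 9.96 and TPM2 at 9.87. Just inside the level threshold stood NEURL1 at 100.9 CPM and ENSSSCG00000004231 at 101.6 CPM, and just outside it ENSSSCG00000024342 at 96.9 CPM.

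Thick filament genes gave 8 of the 67, of 14 listed genes with a row. MYH8 read from 56903 to 124906 CPM in muscle with a median of 88338 CPM. In heart its median was 4.54 CPM in conventional EMB at baseline, 9.93 CPM in micro-EMB at baseline and 7.19 CPM in micro-EMB at follow-up, and the 4 conventional samples at follow-up read 26.7, 4.78, 81.5 and 17.7 CPM (samples 3, 50, 55 and 56). Micro-EMB baseline sample 10 read 62794 CPM, and every other heart sample read 638 CPM or less. The near-identical myosin heavy chains MYH1, MYH2 and MYH4 had no row by name, so reads of those genes could have been counted on MYH8, MYH13, MYH3 or rows without a symbol, and the split among them is uncertain. The light chains MYL1 and MYL11 had muscle medians of 16447 and 6866 CPM. MYL1 had medians of 7.33, 4.03, 17.1 and 3.97 CPM in conventional EMB at baseline and follow-up and micro-EMB at baseline and follow-up, and MYL11 had medians of 0, 4.84, 0 and 0 CPM in the same order. Their cardiac relative MYL3 ran the other way, with 583 CPM in muscle against 4463 CPM in conventional EMB at baseline. The myosin-binding proteins MYBPC1 and MYBPC2 had muscle medians of 8390 and 4787 CPM and heart medians of at most 14.5 and 19.4 CPM, while the cardiac MYBPC3 stood at 0 in muscle and at 3862 CPM in conventional EMB at baseline. MYLK2, the skeletal myosin light chain kinase, had a median of 444 CPM in muscle and of 0 in 3 of the 4 heart groups.

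Thin filament genes gave 3 of 11 with a row. TNNC2, the calcium sensor of fast fibres, ran from 4455 to 10335 CPM in muscle, and its median was 0 in 3 heart groups and 2.42 CPM in conventional EMB at follow-up. TNNC1, the sensor of heart and slow fibres, had 1032 CPM in muscle and 4782 CPM in conventional EMB at baseline. TMOD4, which caps the pointed ends of thin filaments, had 874 CPM in muscle and at most 15.3 CPM as a heart group median. NEB, the giant nebulin along the thin filament, was the exception among these genes, since its heart medians reached 362 CPM beside 22277 CPM in muscle. Skeletal actin ACTA1 was not among the 67 genes, with 42156 CPM in muscle, 6774 CPM in conventional EMB at baseline and a ratio of 6.22.

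Z-disc and attachment genes gave 4 of 18. MYOZ1, a calcineurin-binding protein of fast fibres, had 1558 CPM in muscle and a median of 0 in both micro-EMB groups. XIRP2, an actin-binding repeat protein that striated muscles share, had 19504 CPM in muscle and medians of 945, 278, 637 and 300 CPM in the heart groups, in the order given for MYL1. The protease gene CAPN3 (1185 CPM in muscle) read 38.7 CPM in blood, above its medians in 3 of the 4 heart groups, and PDLIM3 (1279 CPM in muscle) had heart medians from 23.9 to 95.5 CPM.

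**Figure D1:**
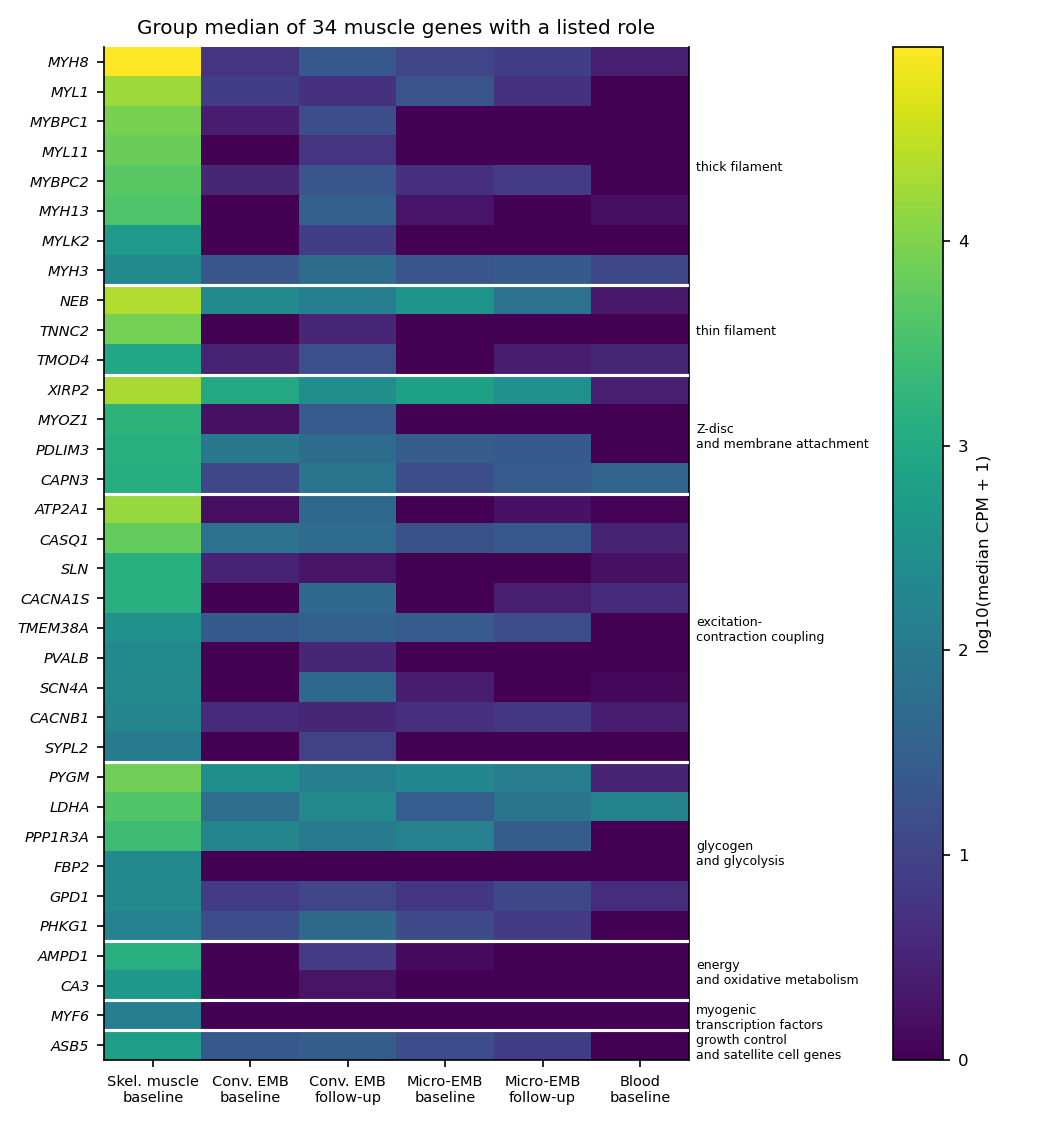
Group medians of the 34 muscle genes that stand in a list of known roles, as log10(CPM + 1), with genes in rows by role and the 6 groups in columns. MYH8 is the brightest cell at 88338 CPM in skeletal muscle, and NEB, XIRP2, PYGM and PPP1R3A are the rows with the most colour in the heart groups.

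Genes that couple the electrical signal to calcium release formed the largest group, 9 of 18. ATP2A1, the pump that returns calcium to the store, had 15284 CPM in muscle, medians of at most 0.732 CPM in 3 heart groups, and 43.2 CPM in conventional EMB at follow-up. CACNA1S, the voltage sensor of the skeletal T-tubule, had 1247 CPM in muscle and medians of 0, 47.6, 0 and 1.61 CPM in the heart groups in the same order. SLN, a small inhibitor of the pump that is known from atria and slow muscle, had 1257 CPM in muscle and a group median of at most 2.14 CPM in ventricle. PVALB, the calcium buffer parvalbumin, had 229 CPM in muscle and the sodium channel gene SCN4A 207 CPM. CASQ1, the calcium store protein of skeletal muscle, kept 70.7 CPM in conventional EMB at baseline against 5976 CPM in muscle, and TMEM38A, a cation channel of the store membrane, kept 24.4 against 321 CPM.

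Among genes of glycogen and glycolysis 6 of 24 qualified. PYGM, muscle glycogen phosphorylase, had 7349 CPM in muscle and heart medians from 121 to 287 CPM, and PPP1R3A, the subunit that brings phosphatase to glycogen, had 2545 CPM in muscle and heart medians from 27.5 to 175 CPM. FBP2, muscle fructose-bisphosphatase, had 219 CPM in muscle and a median of 0 in every heart group and in blood. LDHA, lactate dehydrogenase A, was the gene of the 67 with the highest blood median, 164 CPM beside 4010 CPM in muscle. Most enzymes of the pathway did not qualify, since GAPDH, ENO3, PKM and PGK1 were higher in muscle by ratios of only 4.98, 7.03, 5.06 and 6.88. Of 8 energy genes AMPD1 (AMP deaminase, 1265 CPM) and CA3 (carbonic anhydrase, 439 CPM) qualified. Of 20 myogenic factors only MYF6 did, at 132 CPM with a median of 0 in all heart groups, and of 11 growth genes only ASB5. None of 7 neuromuscular junction genes reached 100 CPM in muscle. All 7 listed fast fibre genes with a row were among the 67 and none of 7 slow fibre genes was, of which 5 reached 100 CPM in muscle. Each list had 13 symbols, the rest without a row. The choice asks for a low level in heart, and slow fibre genes such as TNNC1 are also genes of heart. The contrast therefore does not tell the fibre type of the muscle samples. TNNI1 and TNNT1, the slow troponins, had 189 and 1014 CPM in muscle against 18.0 and 321 CPM in conventional EMB at baseline.

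Of the 67 genes, 33 stood in none of these role lists. EFCAB7, a calcium-binding protein gene, had 2852 CPM in muscle and 251 CPM in conventional EMB at baseline, and AMOT, a regulator of cell junctions, had 1043 and 41.9 CPM. In the RefSeq order of coding genes (assembly Sscrofa11.1, where 48 members were matched), TMOD4 and SEMA6C are separated by 3 genes.

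In heart, the 67 genes summed to a small share of the counts. The median share was 0.267% in conventional EMB at baseline (0.0796 to 0.335%, n = 6), 0.297% in conventional EMB at follow-up, 0.294% in micro-EMB at baseline (0.126 to 15.1%, n = 20) and 0.190% in micro-EMB at follow-up (0.0790 to 0.423%, n = 12). The 4 conventional follow-up samples held 0.143, 0.289, 0.467 and 0.306% (samples 3, 50, 55 and 56). Blood held 0.0422% (0.0382 to 0.0481%, n = 6). The heart groups overlap one another, all but one of the heart samples lie at 0.658% or less, and the blood samples lie below every heart sample. Blood and conventional EMB at baseline had a part in choosing the genes, so the place of blood is a description. Set against the muscle median, the summed CPM was 1.01, 1.12, 1.11 and 0.718% in the 4 heart groups in the order given for MYL1, and micro-EMB at baseline without sample 10 stood at 1.11% as well. With TMM scaling, which divides by estimated library composition, these medians were 0.784, 0.702, 0.611 and 0.492%, and the choice of genes itself gave 83 genes that included the 67.

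**Figure D2:**
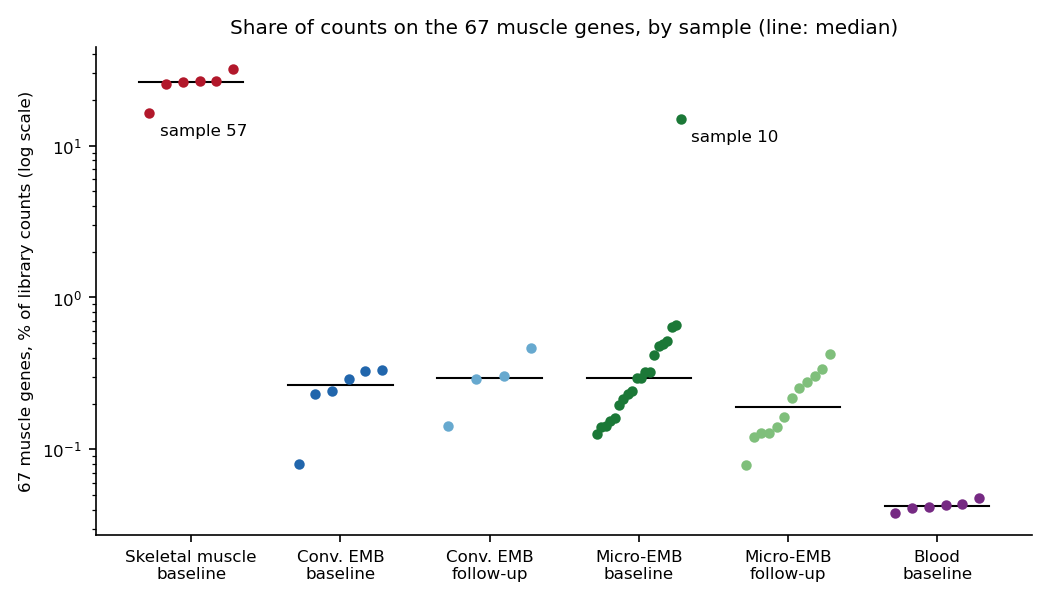
Percent of each library's counts on the 67 muscle genes, on a log scale, with a point for each of the 54 samples and a line at each group median. Skeletal muscle lies from 16.3 to 31.9%, blood under 0.05%, and micro-EMB baseline sample 10 at 15.1% stands beside muscle and apart from the other heart samples.

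The distance from muscle was kept in most heart groups that had no part in the choice. The muscle median was at least 10 times the sum of 1 CPM and the group median for 64 of the 67 genes in micro-EMB at baseline, 61 in micro-EMB at follow-up and 54 in conventional EMB at follow-up. Over all 1267 genes at 100 CPM or more in muscle the share was 6.16, 6.71 and 5.21%. Because the muscle values are those that chose the genes, nothing is read from this difference. In conventional EMB at baseline and blood, which chose them, it was 67 and 67 beside 5.52 and 23%.

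The genes differed in their level in heart, with many between the extremes. Over the 39 heart libraries with at least 5000 expressed genes, 25 of the 67 had a median of 0, 23 had at least 10 CPM and 5 had at least 100 CPM, which were XIRP2, NEB, PYGM, EFCAB7 and PPP1R3A. XIRP2 had a heart median of 647 CPM (0.373 to 4253 CPM), PYGM of 192 CPM (1.80 to 461 CPM) and NEB of 194 CPM (0 to 1080 CPM). XIRP2 and PYGM were read in all 39. Across these libraries the CPM of XIRP2, PYGM, EFCAB7 and PPP1R3A followed the summed cardiomyocyte markers, with Spearman correlations of 0.78, 0.80, 0.75 and 0.78, whereas that of LDHA was -0.53 and that of MYH8 -0.01. NEB, ASB5 and MYL1 stood between, at 0.56, 0.59 and 0.63. These are descriptions over biopsies of 5 pigs whose CPM share a total.

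The 34 genes with a ratio of at least 100, called strict here, carried the skeletal signal with the least heart level, yet NEB alone made up 76.6% of their sum in the median conventional baseline biopsy. Without NEB the other 33 summed to 184450 CPM in the median muscle sample. They summed to 47.0 CPM in conventional EMB at baseline, 564 CPM in conventional EMB at follow-up, 106 CPM in micro-EMB at baseline, 84.0 CPM in micro-EMB at follow-up and 26.6 CPM in blood, as group medians. The 4 conventional follow-up samples read 348, 31.8, 2091 and 781 CPM (samples 3, 50, 55 and 56), and without sample 55 their median was 348 CPM. Conventional EMB at baseline and blood had a part in choosing the genes, so their low sums are a description. The share of counts on the 34 genes was 0.00726% in blood sample 28, above the 0.00424% of heart samples 38 and 52. Of the 34, the median was 0 for 23, 7, 24 and 21 in the heart groups in the order given for MYL1, and for 24 in blood.

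One heart library carried skeletal muscle genes near their muscle level. In sample 10, a micro-EMB of pig 4491 at baseline, 11138 of 73988 counts lay on the 67 genes, or 15.1% (95% Wilson interval 14.8 to 15.3%), which is 56.9% of the muscle median. The strict genes stood at 63.4% of their muscle median, and the next heart samples at 1.29% (sample 19) and 1.05% (sample 55). Intervals here cover counting error only, since copies made by PCR are not separate molecules. MYH8 gave 4646 reads (62794 CPM, 71.1% of the muscle median), ATP2A1 1360 reads (18381 CPM, 120%), NEB 833 reads (50.5%), TNNC2 532 reads (87.6%) and MYL1 506 reads (41.6%). Over all 20 micro-EMB samples at baseline the median of ATP2A1 and that of TNNC2 was 0.

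The signal of sample 10 crossed the roles but not all genes. Of the 67 genes 32 had a read, 29 of which reached at least 10% and 21 at least 50% of the muscle median. Over the 1267 genes at 100 CPM or more in muscle, 41.9% had a read in sample 10, 34.6% reached 10% and 21.9% reached 50%, so the number of genes does not set the 67 apart. At 10% of muscle or more stood 17 of the 34 strict genes in sample 10, and at most 10 in any other heart sample. Of the 27 genes at 1000 CPM or more in muscle 23 were read, beside 72 of all 86 genes at that level (83.7%). Of the 40 lower ones 9 were read, a smaller share than among all genes from 100 to 1000 CPM. CACNA1S (120%), AMPD1 (151%), CAPN3 (141%), PYGM (57.7%) and the fast light chain MYL11 (38.4%) were among those read, and SYPL2, a protein of the triad membrane, was highest in relation to muscle at 512% from 41 reads.

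Some genes of skeletal muscle were low or absent in the same library. MYBPC1 stood at 6.60% of the muscle median from 41 reads and XIRP2 at 3.12% from 45. No read fell on SLN, PPP1R3A, AMOT or ENSSSCG00000018003, all above 1000 CPM in muscle, where the 3 counts taken as the floor equal 40.5 CPM, nor on CA3, PVALB, FBP2, MYF6 or SCN4A. Over the 67 genes the Spearman correlation between CPM in sample 10 and the muscle median was 0.74, and it ran from -0.04 to 0.62 in the other heart samples and from 0.92 to 0.98 in the muscle samples that set the median.

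**Figure D3:**
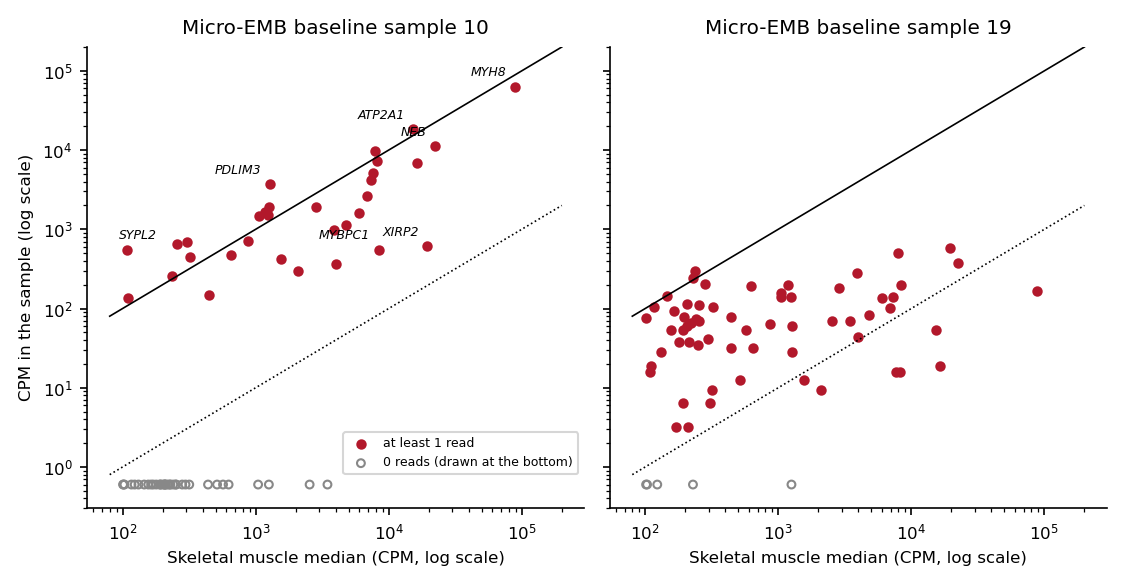
CPM of each of the 67 genes in micro-EMB baseline samples 10 (left) and 19 (right) against the skeletal muscle median, both on log scales, with genes without a read drawn as open circles at the bottom, a solid line at equality and a dotted line at 1% of muscle. In sample 10, 21 of the 32 genes read lie at 50% of muscle or more, from SYPL2 at 512% past MYH8 at 71.1%, XIRP2 lies at 3.12%, and 35 genes have no read, while in sample 19 most genes are read, those highest in muscle far below equality.

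Sample 10 also held heart genes. MYH6, the alpha myosin of heart, gave 2964 reads, TNNT2 445 reads (6014 CPM, beside 8.20 CPM in muscle and 9264 CPM in the median micro-EMB baseline sample), the calcium channel gene RYR2 116 reads and MYBPC3 56 reads. Cardiac actin ACTC1 had no read. The myosin heavy chain gene MYH7 had no row by name, so reads of other heavy chains could have been counted on MYH6. MYH6 is part of the marker sum that follows. The summed cardiomyocyte markers were 48427 CPM, against 6011 CPM in muscle and 80904 CPM in micro-EMB at baseline as medians, with 5 of 10 markers read. The library was sparse, with 1386 genes at 1 CPM or more, a total in which 1 read is worth 13.5 CPM, and 0 leukocyte marker reads. The red cell markers summed to 1095 CPM, beside a median of 34.4 CPM in micro-EMB at baseline. A source for its skeletal genes was not tested.

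Lower amounts of skeletal genes appeared in other heart libraries, in patterns that were not distinct. In samples 25 and 45, both micro-EMB at baseline of pig 4665, and in sample 9 of pig 4493, MYH8 led the strict genes other than NEB, with 968, 469 and 41 reads or 253, 423 and 638 CPM. Their sum in these libraries was 0.254, 0.383 and 0.827% of the muscle median. In sample 25 MYL1 (265 reads) and ATP2A1 (116 reads) came next, and in sample 45 MYOZ1 (148 reads) did. In sample 9 ENSSSCG00000002961 (32 reads) and ENSSSCG00000018003 (13 reads) came next. They stood at 6.28 and 5.84% of muscle there, above MYH8 at 0.723%. Sample 16, also micro-EMB at baseline and from pig 4491, had CA3 (190 reads, 24.8% of muscle) and FBP2 (154 reads, 40.2%) beside 101 reads of MYL1. MYH8 had no read in it. These are single libraries and single genes, and nothing was tested on them.

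Many of the genes were also read at a low level in libraries where detection was broad. In the 4 heart libraries with 15000 or more expressed genes, from 27 to 31 of the 34 strict genes had a read, against 2 to 24 with a median of 13 in the other 35 libraries with 5000 or more. In the same 4 libraries 560 to 1939 of the 3982 genes with a median of 0 in every group had a read, against 30 to 812 in the 35. In samples 19, 55 and 56 the leading strict gene other than NEB was ENSSSCG00000002961 (6.30, 7.03 and 2.42% of muscle), not MYH8. Over the 39 libraries the number of strict genes read went with the number of expressed genes (Pearson 0.80, Spearman 0.63) and not with depth (Spearman 0.02). The part of detection in these low values was not tested beyond these counts.

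**Figure D4:**
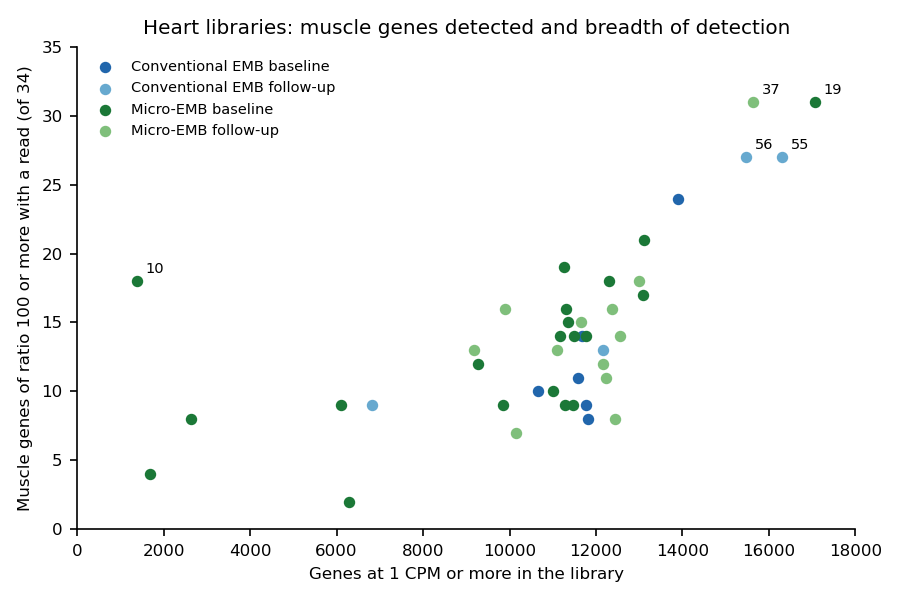
Number of the 34 strict muscle genes with at least 1 read against the number of genes at 1 CPM or more, with a point for each of the 42 heart libraries, coloured by group. The libraries past 15000 genes (19, 37, 55 and 56) have 27 to 31 genes read, and sample 10 has 18 read with 1386 genes expressed.

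The change from baseline to follow-up in micro-EMB had no part in the choice and was tested over 29 libraries with the pig as a covariate. Pig 4493 had no follow-up sample, so the change itself rests on the 26 libraries of the other pigs. None of the 59 genes of the 67 that passed the filter on low counts was called by edgeR's quasi-likelihood test, and 0.00718% of the 13934 genes tested were. A p that misses the threshold does not show that a gene was unchanged. One of the 59 had an unadjusted p under 0.05, beside 3.8% of all genes tested (529 of 13934). This gene was MYL1, with a log2 fold change of -2.29 (SE 0.97) and an adjusted p of 0.9996. DESeq2 called 0 of the 21 members to which it gave an adjusted p, beside 0.318% of all such genes. NEB had a log2 fold change of -1.40 (SE 0.77, adjusted p = 0.9996), XIRP2 of -1.12 (SE 0.63), PPP1R3A of -0.80 (SE 0.79) and PYGM of -0.45 (SE 0.59). All 4 had lower medians at follow-up, but the ranges of the groups overlap. The median log2 fold change of the 59 was -0.25, beside 0.07 for all genes tested, and turned to 0.11 without samples of high blood share and 0.09 without libraries under 1000000 counts. Summed cardiomyocyte markers had medians of 80904 CPM at baseline and 45329 CPM at follow-up and fibroblast markers of 12538 and 34676 CPM, and their part in these values was not tested. In bulk samples fewer cells of a type and less RNA per cell cannot be told apart.

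The difference between micro-EMB and conventional EMB at follow-up was tested over 10 samples of pigs 4491 and 4494. None of 51 genes tested differed by edgeR, where 0% of 12137 genes did, and 6 of the 51 had an unadjusted p under 0.05, beside 7.57% of all genes tested (919 of 12137). A p that misses the threshold here, with 10 samples of 2 pigs, does not show that the values did not differ. SCN4A read 53.5, 0, 119 and 35.5 CPM in conventional samples 3, 50, 55 and 56, and it was among the genes lower in micro-EMB, with a log2 fold change of -5.66 (SE 1.74, adjusted p = 0.276). MYH13 read 0, 0.531, 282 and 64.5 CPM in the same 4 samples, with -4.18 (SE 1.65, adjusted p = 0.486). The high values of both genes came from samples 55 and 56 of pig 4491, and for SCN4A also from sample 3, where 1 read is worth 13.4 CPM. DESeq2 called 632 genes (5.3% of those with an adjusted p) and 5 of the 43 members with an adjusted p. The 5 were all lower in micro-EMB (SCN4A, MYH13, PHKG1, ANO5 and ENSSSCG00000011508). Without samples 55 and 56, which have 15000 or more expressed genes, it called 18 genes (0.139%) and 0 of the 46 members with an adjusted p. Without those samples the conventional side held 2 biopsies, both of pig 4494.

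**Figure D5:**
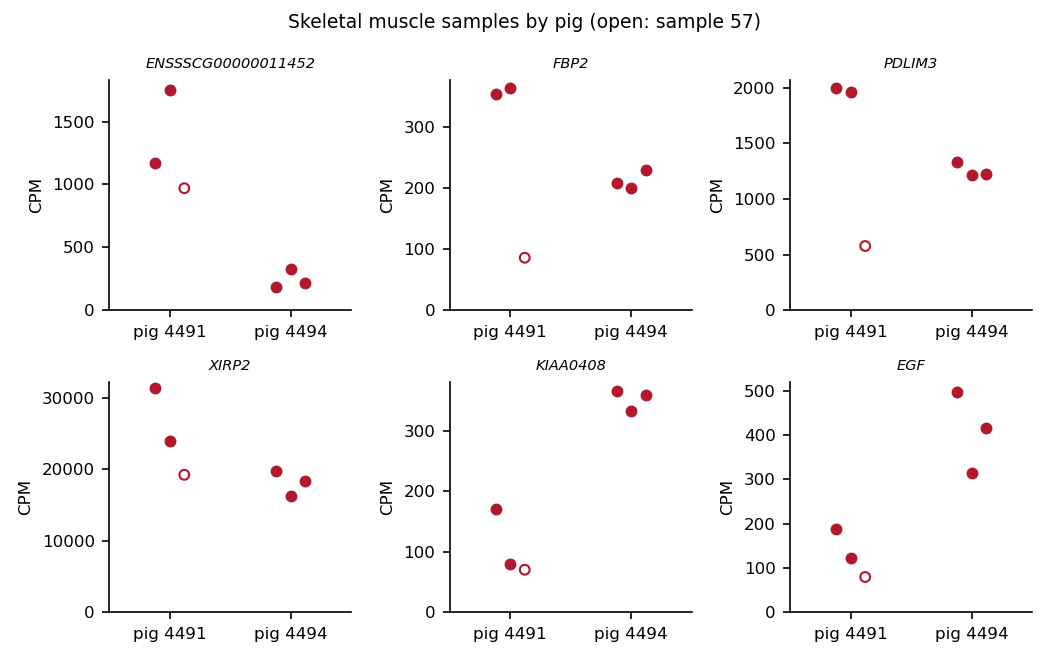
CPM of 6 muscle genes in the 3 skeletal muscle samples of pig 4491 and the 3 of pig 4494, with sample 57 drawn open and each axis from 0. ENSSSCG00000011452 is higher and KIAA0408 and EGF are lower in every sample of pig 4491, and FBP2 and PDLIM3 are higher in its samples other than sample 57.

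Among the muscle samples, pig 4491 was compared with pig 4494. None of the 67 genes differed by edgeR, where 0.0219% of 9130 genes did, while 4 of the 67 had an unadjusted p under 0.05, beside 9.41% of all genes tested (859 of 9130). DESeq2 called ENSSSCG00000011452 and KIAA0408, among 109 genes in all (1.08%). The samples of the 2 pigs did not overlap for 26 of the 67 genes, beside 19.2% of all genes tested. For 25 of the 26, every sample of pig 4491, not only sample 57, lay below every sample of pig 4494. ENSSSCG00000011452 read 1167, 1752 and 970 CPM in pig 4491 and 187, 330 and 220 CPM in pig 4494, with a log2 fold change of 2.45 (SE 0.49, adjusted p = 0.154). KIAA0408 read 170, 79.3 and 70.6 CPM in pig 4491 and 366, 333 and 360 CPM in pig 4494 (-1.65, SE 0.44, adjusted p = 0.335). EGF, a growth factor precursor, read 188, 123 and 79.8 CPM against 498, 315 and 417 CPM (-1.56, SE 0.45, adjusted p = 0.372). The groups do not overlap for these genes, yet none passed edgeR's adjusted threshold in the fit of all 6 samples.

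Without sample 57 edgeR called 6 of the 67 genes in the same comparison, among 150 genes in all (1.54%). ENSSSCG00000011452, XIRP2, FBP2 and PDLIM3 were higher in pig 4491, and KIAA0408 and EGF were lower. XIRP2 then had a log2 fold change of 0.80 (adjusted p = 0.0164), FBP2 of 0.95 (adjusted p = 0.0268) and PDLIM3 of 0.85 (adjusted p = 0.0268), by edgeR. FBP2 read 353 and 363 CPM in the other samples of pig 4491 and 85.9 CPM in sample 57. With sample 43 of the same pig left out instead, edgeR called ENSSSCG00000011452 alone of the 67 genes (adjusted p = 0.0451), beside 3.69% of all genes tested. With 2 animals, a difference between pigs and one between sampling sites cannot be told apart.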

How the data were processed

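RNA was sequenced with a stranded total RNA kit (SMARTer) for low input. The authors trimmed the reads with Trim Galore, mapped them to Sscrofa10.2 with STAR and assigned them with featureCounts, and they deposited whole-number counts for 25114 genes in 54 samples without normalization. Strand settings and versions are not given in the sources used here. Symbols were matched for 11791 identifiers.

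CPM used the column sums. A gene was expressed at 1 CPM. The members and lists were chosen with earlier results of these data known. Tests used edgeR 4.0.16 in R 4.3.3 (TMM, filterByExpr, quasi-likelihood test, Benjamini-Hochberg adjustment over all genes tested, threshold 0.05), with the pig as a covariate in heart. Libraries under 5000 expressed genes were left out. Contrasts that chose the members were not tested. DESeq2 1.42.0, other filters and left-out samples were alternatives. The edgeR step was also run on simulated data. It missed part of the changes planted in each comparison, and all of those planted for micro-EMB against conventional EMB at follow-up. Wilson intervals (95%) and floors of 3 counts cover counting error only. Genes named were up to 6 per role list by muscle median, the 5 highest ratios, those at the thresholds, those called in a test, heart and skeletal relatives, and those leading in sample 10. The other genes named (members in no list, such as EFCAB7 and AMOT, and those named in tests they did not pass) were chosen after their values were seen. The limit of 15000 expressed genes was also set then. Sequences were not used here, and some genes are not reported here.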

Additional observations from a re-analysis of the deposited data

Results flagged for a closer look

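One heart library outside the tests carried a signal of skeletal muscle. It had fewer expressed genes than any micro-EMB sample that passed the paper's quality control. In micro-EMB baseline sample 10 the strict genes stood at 63.4% of the muscle median, while the 20 micro-EMB samples at baseline had a median of 0.252% and the next highest heart sample stood at 1.29%. The source was not tested.

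Within groups of 4 to 10 samples, 56 sets of values were checked for a sample far from the others by Dixon's rule. Of these, 8 were marked. For normally distributed values chance alone would mark about 1 in 20, but CPM of genes with few reads need not follow that distribution. FBP2 and MYF6 were each read in only 1 conventional EMB sample at follow-up, and the rule always marks such a set. The number marked is therefore not compared with that share. In skeletal muscle, sample 57 was far below the other 5 for ATP2A1 at 5591 CPM, PYGM at 1424 CPM and MYOZ1 at 789 CPM. In conventional EMB at follow-up, sample 55 was far above the others for TNNC2 at 37.6 CPM, MYF6 at 9.41 CPM and KIAA0408 at 87.8 CPM. In the same group sample 56 was far above for FBP2 at 17.7 CPM and sample 3 for SLN at 40.1 CPM, which is 3 reads.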

How the results depend on the processing

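Counting only the strict genes, the median level relative to muscle moved from 1.01 to 0.154% in conventional EMB at baseline, from 1.12 to 0.351% in conventional EMB at follow-up, from 1.11 to 0.252% in micro-EMB at baseline and from 0.718 to 0.0861% in micro-EMB at follow-up. The set of 67 kept within 1.5 times its size under every alternative rule run, from 53 genes at a ratio of at least 20 to 92 at a ratio of at least 5, and from 62 to 69 with 1 muscle sample left out.

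No member was called for micro-EMB at follow-up against baseline under any alternative. Over all genes that comparison gave 1 call, and 18 with DESeq2, 16 with no filter on low counts, 0 without samples of high blood share, 2 with all 32 libraries, 8 without the pig as replicate block, 0 without libraries under 1000000 counts, 0 to 1 with a pig left out, 0 without libraries of 15000 or more expressed genes and 21 by DESeq2 without them. Leaving out those broad libraries was chosen after seeing the data. Counts summed per pig with the replicate block gave 1 call over all genes.

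For micro-EMB against conventional EMB at follow-up, members called went from 0 to 5 with DESeq2 and 2 with no filter on low counts, and all genes called from 0 to 632, 334 and, by DESeq2 without the broad libraries, 18. For the muscle of pig 4491 against pig 4494, members called went from 0 to 2 with DESeq2, 3 with no filter and 6 without samples of high blood share, which is sample 57. Leaving out 1 muscle sample at a time gave 0 to 6 members and 0 to 370 genes. All genes called went from 2 to 109 with DESeq2, 516 with no filter and 150 without sample 57. The cause of these shifts was not tested. Over the 14 gene-level differences followed through the alternatives, the direction never reversed. Depth limits samples 3, 9 and 10 most, where 1 read is worth over 13 CPM.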

Other observations

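Markers of other cell types were also read in the muscle samples. The summed CPM of 4 adipocyte markers had a median of 51.9 CPM in skeletal muscle, and 4 red cell markers a median of 14.3 CPM against 47017 CPM in blood. Fibroblast markers had their highest muscle value in sample 57, at 8855 CPM. The homeobox factor SIX4 (49.8 CPM) and the co-factor VGLL2 (35.4 CPM), both known from skeletal muscle development, had medians of 0 in conventional EMB at baseline and blood and fell short of the level threshold. The calcium channel subunit gene CACNG1 (77.5 CPM) did too, and it had 2 reads in sample 10. HOXC10, a gene of posterior body position, had a muscle median of 19.9 CPM and medians of 0 in 3 of the 4 heart groups. It had 16 reads in sample 10, where 1 read is worth 13.5 CPM, so its level there lay above the muscle median. The other HOX genes listed are not given here, and nothing is read from this single gene.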
